A study of Mus musculus with 16 samples.

Results

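Bmp antagonists, intracellular brakes of Bmp signalling and the Id genes were described here in the face of mouse embryos at embryonic day 12. The 10 genes are a list of names, with no threshold on their values, that was drawn up with earlier results of these data known: the secreted antagonists Nog, Chrd, Grem1 and Fst, the membrane pseudoreceptor Bambi, the inhibitory Smad gene Smad6, and the target genes Id1, Id2, Id3 and Id4. All 10 were found, in 1 row each, among the 30286 gene symbols of the deposited table. The C57BL/6 embryos were either wild-type (WT) or Esrp1 KO, with no Esrp1 allele intact (Esrp1-/-). Esrp1 encodes an RNA splicing regulator of epithelial cells, and the study's title concerns cleft lip and palate, Wnt signalling and the exchange of signals between epithelium and mesenchyme. From each genotype the surface ectoderm of the facial prominences and the mesenchyme under it were separated surgically, which gave 4 groups of 4 libraries, each a pool of 6 to 7 embryos. Which exons of Esrp1 the allele lacks is not stated in the labels.

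Bone morphogenetic proteins (Bmps) are secreted ligands that bind paired serine/threonine kinase receptors. The receptors phosphorylate Smad1, Smad5 and Smad9, which enter the nucleus with Smad4 and switch on target genes. Id genes are among the best known of these targets, and their proteins bind E proteins and related helix-loop-helix factors and keep them off DNA. Nog, Chrd and Grem1 proteins trap Bmp ligands outside the cell, Fst protein traps mainly activins, Bambi protein resembles a receptor without a kinase, and Smad6 protein blocks the signal inside the cell. Several of these brakes are themselves switched on by Bmp signals. In the facial prominences Bmp signals pass between ectoderm and mesenchyme and take part in outgrowth and fusion.

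The table holds 1 value per gene and group in TPM, which scales transcript reads by library size and by the length of the transcript and so allows levels of different genes to be compared. With 1 value per group no SD, standard error or p-value can be given, the differences have no replicate check, and the depth behind a value is unknown. Log2 ratios are differences of log2(TPM + 1), which understate the change of genes at low level. A KO difference of at least 1.5-fold, or a layer difference of at least 2-fold, was counted as higher or lower, which describes the deposited values and is not a test. Esrp1 was at 62.9 TPM in KO ectoderm against 170 in WT ectoderm, and at 1.0 against 1.01 TPM in mesenchyme. All 12 surface ectoderm markers were higher in WT ectoderm than in WT mesenchyme, and all 13 facial mesenchyme markers were higher in WT mesenchyme, as the tissue labels say. KO ectoderm held more of the transcripts of other cell types: all 13 mesenchyme markers (summed level 396 TPM against 111 in WT), all 10 endothelial markers (56.1 against 20.9 TPM) and all 8 nasal and olfactory ectoderm markers (199.7 against 76.9 TPM) were at least 1.5-fold higher than in WT ectoderm. Of the endothelial markers 5 were under 1 TPM in WT ectoderm and none in KO. Higher as well were all 7 measured muscle markers, 5 of 6 neuron, 4 of 6 macrophage, 2 of 6 cartilage and bone and 1 of 7 red blood cell markers, while 2 of 12 surface ectoderm markers, Krt15 and Esrp1, were lower. In KO mesenchyme 8 of 13 mesenchyme, 7 of 8 cartilage and bone, 3 of 10 endothelial, 3 of 8 muscle and 3 of 4 measured nasal markers were lower, and 3 of 6 neuron and 1 of 7 red blood cell markers higher. Macrophage and surface ectoderm markers had none 1.5-fold apart there. Over all genes 4.92% were higher and 0.452% lower in KO ectoderm, and 2.33% higher and 13.4% lower in KO mesenchyme. In such bulk samples, fewer cells of a type and less RNA per cell cannot be told apart. The marker ratios were not adjusted for the trend with transcript GC content that is given below.

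The sequences before the RefSeq starts of 3 members are shown because these genes differ in where they were higher in KO tissue: Grem1 in both layers, Id3 in ectoderm and Id2 by smaller steps in both. Each is the 250 bases before the RefSeq start of the gene (GRCm38.p6), written 5′ to 3′ on the gene's own strand. In GENCODE M21 the models of Id2 and Id3 begin further upstream, so that both windows lie within those gene models, while the Grem1 window lies before its gene in both annotations. Capitals mark GGCGCC, a GC-rich sequence of the kind that Bmp Smads bind, and GTCT or its complement AGAC, the short box bound by Smad4.
Grem1 (chr2:113758649-113758898, minus strand): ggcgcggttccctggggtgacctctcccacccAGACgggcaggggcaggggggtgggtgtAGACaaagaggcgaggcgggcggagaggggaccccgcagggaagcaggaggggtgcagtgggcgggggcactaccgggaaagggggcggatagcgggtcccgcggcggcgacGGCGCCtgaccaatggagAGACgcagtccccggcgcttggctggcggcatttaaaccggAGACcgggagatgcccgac
Id2 (chr12:25096093-25096342, minus strand): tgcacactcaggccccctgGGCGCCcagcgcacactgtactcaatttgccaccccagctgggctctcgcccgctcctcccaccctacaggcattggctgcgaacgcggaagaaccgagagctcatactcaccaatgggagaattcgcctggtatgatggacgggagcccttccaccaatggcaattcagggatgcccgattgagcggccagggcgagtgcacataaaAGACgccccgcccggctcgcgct
Id3 (chr4:136143572-136143821, plus strand): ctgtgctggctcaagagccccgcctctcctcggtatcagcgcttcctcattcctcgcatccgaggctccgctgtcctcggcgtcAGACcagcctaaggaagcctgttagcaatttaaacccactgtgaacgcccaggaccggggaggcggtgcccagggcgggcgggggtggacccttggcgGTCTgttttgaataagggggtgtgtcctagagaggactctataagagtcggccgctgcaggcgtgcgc
Grem1 held 4 GTCT boxes and 1 GGCGCC, the latter starting 78 bases before the RefSeq start of the gene. Id2 held 1 of each, with GGCGCC starting 231 bases before the start, and Id3 held 2 GTCT boxes and no GGCGCC. On either strand, GTCT occurred in 82.9% and GGCGCC in 9.59% of the 32851 promoter windows of this length in the table, with a median of 2 GTCT boxes a window.

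Promoter windows were matched for 6 of the 10 members, the others being Chrd, Smad6 and Id4; Nog, Fst, Bambi and Id1 were not analysed here for sequence. GGCGCC was found in 4 of the 6 (Chrd, Grem1, Id2 and Id4) and GTCT in 5, all except Id4. The longer element GGCGNCNNNNNGTCT, which joins both boxes at a fixed distance, was in none of the 6 and in 0.192% of all windows. These windows were GC-rich, from 62.8% in Id2 and Id3 to 78% in Chrd, against a median of 52.4% over all windows. A match describes these letters only, and a window without one says nothing about Smads at more distant sites.

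Levels divided the members into abundant and scarce transcripts. Id1, Id2 and Id3 lay between 83.6 and 388 TPM in every group, while Id4 and the 6 antagonist and feedback genes lay between 1.17 and 28.6 TPM. The 4 Id genes together summed to 567 TPM in WT ectoderm and 614 in WT mesenchyme. The 4 secreted antagonists summed to 24.9 and 28.8 TPM in the same groups, and 10 Bmp and Gdf ligand genes to 126 and 134 TPM. The Id sum was thus above the ligand and antagonist sums in both layers. Id4 was the exception among the Id genes, at 25.2 TPM in ectoderm and 7.98 in mesenchyme, below the ligand gene Bmp7 at 77.8 and 30.3 TPM.

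**Figure D1:**
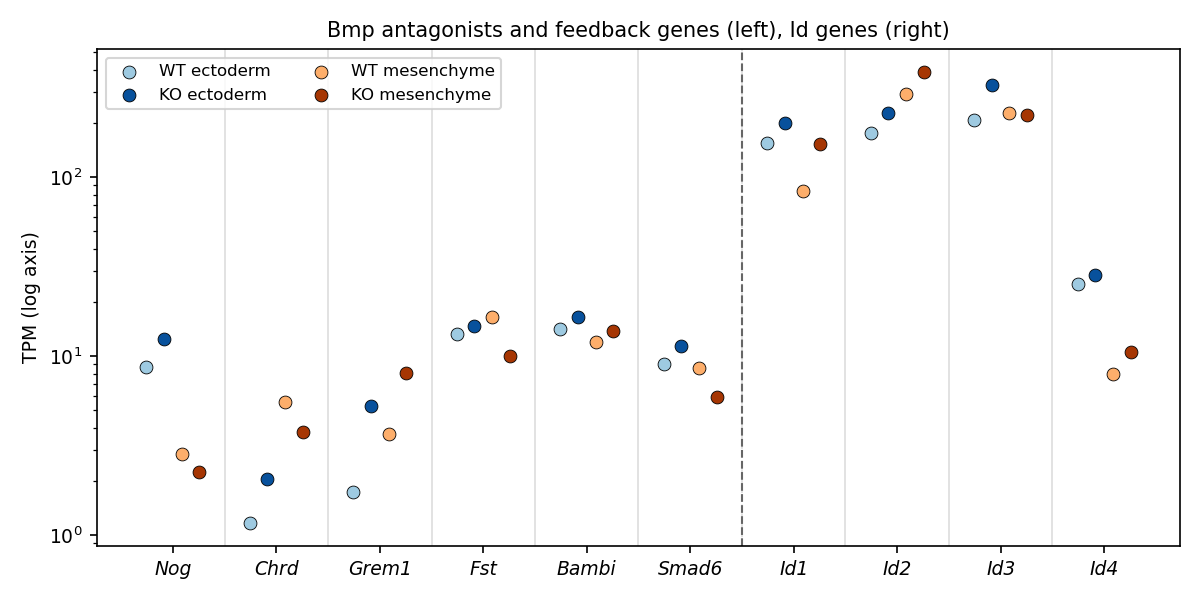
TPM (log axis) of the 10 genes in the 4 groups; each point is the authors' 1 value for a group, with no error. KO ectoderm (dark blue) lies above WT ectoderm (light blue) for all 10 genes, while KO mesenchyme (dark brown) lies above WT mesenchyme (light orange) for Grem1, Bambi, Id1, Id2 and Id4.

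In WT tissue the antagonists were divided between the layers. Nog (chromosome 11, 89300638 to 89302332, minus strand), which encodes the antagonist noggin, was the 1 member antagonist at least 2-fold higher in ectoderm, at 8.66 TPM against 2.86 in mesenchyme, a log2 ratio of 1.32. Chrd (chromosome 16, 20733127 to 20742384, plus strand), which encodes chordin, had the opposite pattern, at 1.17 TPM in ectoderm and 5.59 in mesenchyme (log2 ratio -1.60). Grem1 (chromosome 2, 113746164 to 113758646, minus strand), which encodes gremlin, was also higher in mesenchyme, at 1.75 and 3.66 TPM (-0.76, within 2-fold on this scale). Fst (chromosome 13, 114452290 to 114458951, minus strand), which encodes follistatin, was the most abundant of the 4 member antagonists in both layers, at 13.3 TPM in ectoderm and 16.7 in mesenchyme. The feedback genes differed little between the layers. Bambi (chromosome 18, 3507923 to 3516404, plus strand) was at 14.3 TPM in ectoderm and 12.1 in mesenchyme, and Smad6 (chromosome 9, 63953076 to 64022059, minus strand) at 9.09 and 8.59 TPM.

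The Id genes were divided between the layers as well. Id4 (chromosome 13, 48261228 to 48266026, plus strand) was higher in WT ectoderm, at 25.2 TPM against 7.98 (log2 ratio 1.55). Id1 (chromosome 2, 152736251 to 152737410, plus strand) was at 155 and 83.6 TPM (0.88, within 2-fold). Id2 (chromosome 12, 25093799 to 25097140, minus strand) leaned the other way, at 177 TPM in ectoderm and 294 in mesenchyme (-0.73). Id3 (chromosome 4, 136143497 to 136145755, plus strand) was nearly level at 210 and 229 TPM. Id3 was thus the leading Id gene of WT ectoderm, with 37.0% of the Id sum, and Id2 that of WT mesenchyme, with 47.9%. Of the 10 members, Nog and Id4 were at least 2-fold higher in WT ectoderm and Chrd at least 2-fold higher in WT mesenchyme, where 6.88% and 12.1% of 14242 genes were. The median log2 ratio of the members was -0.02, and that of all genes -0.15. The positions above are those of GENCODE M21 on GRCm38, and all 10 are protein-coding genes.

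In KO ectoderm every member had a higher value than in WT ectoderm. The log2 ratios ran from 0.14 (Fst) to 1.19 (Grem1) with a median of 0.37, while 64.2% of all genes had a ratio above 0 and the median of all genes was 0.05. Of the 10 genes 2, Grem1 and Id3, were at least 1.5-fold higher and none was lower. Over all 13935 genes 4.92% were higher and 0.452% lower at this size.

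Among the secreted antagonists, Grem1 differed most in ectoderm, with 5.29 TPM in KO against 1.75 in WT (log2 ratio 1.19). Of 2821 genes of a like level (mean TPM within 2-fold of its own), 12.2% were at least 1.5-fold higher, more than among all genes. Nog had 12.5 against 8.66 TPM (0.48) and Chrd 2.07 against 1.17 TPM (0.50), both within 1.5-fold on the log2(TPM + 1) scale. Fst was close to level, at 14.75 against 13.3 TPM. The sum of the 4 antagonists was 1.39 times its WT value, and the share of Grem1 in it was 7.03% in WT and 15.3% in KO. Chrd overlaps Thpo on the opposite strand, Fst and Id4 overlap antisense or long noncoding genes, and the labels do not tell if counting used the strand. Thpo itself was at 0.47 to 1.10 TPM.

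Among the feedback genes and Id genes, Id3 alone was 1.5-fold higher in KO ectoderm. Bambi had 16.7 TPM in KO against 14.3 in WT (0.21), and Smad6 11.4 against 9.09 TPM (0.29). Id3 had 327 against 210 TPM (0.64), and 7 of 781 genes of a like level (0.896%) were 1.5-fold higher. It was within 1.5-fold under 3 alternatives, at 0.54 after subtraction of the trend with transcript GC content, 0.57 with columns rescaled without mitochondrially encoded genes and 0.58 with quantile normalization. In WT and KO respectively, Id1 was at 155 and 200.2 TPM (0.37), Id2 at 177 and 229 TPM (0.37), and Id4 at 25.2 and 28.6 TPM (0.18). The Id sum was 784 TPM in KO ectoderm, 1.38 times WT. Id3 had 41.7% of it.

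The higher values in KO ectoderm were set beside the mesenchyme transcripts found there. For 7 members (Nog, Grem1, Bambi, Smad6, Id1, Id3 and Id4) the value in KO ectoderm was above both WT ectoderm and WT mesenchyme, a pattern of 22.0% of all genes. For Chrd, Fst and Id2 it lay between WT ectoderm and WT mesenchyme, as for 42.1% of all genes. The median mesenchyme marker in KO ectoderm had gained 10.6% of its excess in WT mesenchyme (quartiles 9.33 and 11.6, 13 markers), and the median endothelial marker 10.2% (10 markers). Subtraction of such a share of WT mesenchyme, with rescaling, can only raise the ratio of a gene whose value in KO ectoderm is above that in WT mesenchyme, as it was for those 7 members. For the other 3, the ratios after subtraction of the share estimated from the mesenchyme markers were 0.29 (Chrd), 0.32 (Id2) and 0.12 (Fst). KO mesenchyme was also used as the reference, with a median marker share of 16.2% (quartiles 12.8 and 25.2, 12 markers). Shares at the quartiles were not tried with either reference. With the median share of KO mesenchyme subtracted, the ratios were 0.34 (Chrd), 0.16 (Id2) and 0.22 (Fst). Grem1, at 5.29 TPM in KO ectoderm and 8.03 in KO mesenchyme, then had a ratio of 1.07, against 1.19 as deposited. The part of the nasal ectoderm transcripts in these values was not tested.

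**Figure D2:**
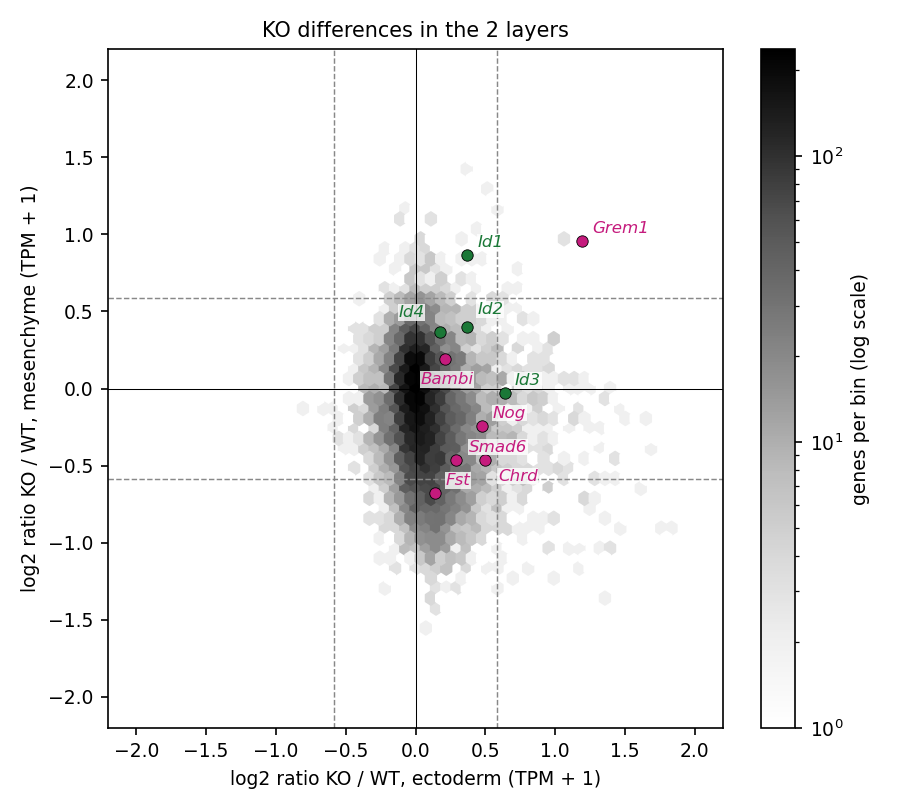
Log2 ratio of KO to WT in ectoderm (horizontal axis) and in mesenchyme (vertical axis), on the scale of TPM + 1; grey bins count all genes, pink points are antagonist and feedback genes, green points Id genes, and dashed lines mark 1.5-fold. All 10 members lie right of 0, and Grem1 (1.19 and 0.95) is the 1 member past 1.5-fold in both layers.

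In KO mesenchyme the members lay on both sides of WT. Grem1 and Id1 were at least 1.5-fold higher and Fst at least 1.5-fold lower, where 2.33% of 14233 genes were higher and 13.4% lower. The median log2 ratio of the members was 0.08 and that of all genes -0.12. Of the 4 Id genes 3 had ratios above 0, as had 36.5% of all genes, and of the 6 antagonist and feedback genes 2 had, Grem1 and Bambi.

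Among the antagonists, Grem1 was at 3.66 TPM in WT mesenchyme and 8.03 in KO, a log2 ratio of 0.95, above that of 99.3% of all genes. Of 3325 genes of a like level, 4.00% were 1.5-fold higher. Fst was at 16.7 and 10.04 TPM (-0.68), and 16.1% of 4489 genes of a like level were 1.5-fold lower. It was within 1.5-fold after subtraction of the median of all genes (-0.56), with quantile normalization (-0.49) and with a pseudocount of 5 TPM (-0.53). Fst stayed the most abundant of the 4 antagonists, but its share of their sum was 57.9% in WT and 41.6% in KO, while that of Grem1 was 12.7% and 33.3%. Chrd was at 5.59 and 3.78 TPM (-0.46) and Nog at 2.86 and 2.26 TPM (-0.24). The antagonist sum was 24.1 TPM in KO mesenchyme, 0.838 times WT, and the ligand sum 97.4 TPM, 0.727 times WT. The antagonist sum per TPM of ligand was 0.215 in WT mesenchyme and 0.248 in KO, and 0.197 and 0.262 in WT and KO ectoderm. These ratios cover the 4 member antagonists only, of which Fst protein traps mainly activins. Left out are 15 other secreted modulators, among them Sostdc1 (100.4 TPM in WT and 76.7 in KO ectoderm) and Nbl1 (124 and 74.2 TPM in mesenchyme). Of the 13 measured, 7 had KO ratios above 0 and 6 below in ectoderm, and 1 above and 12 below in mesenchyme.

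Among the Id genes of the mesenchyme, Id1 differed most, with 153 TPM in KO against 83.6 in WT (log2 ratio 0.86), above the ratio of 99.1% of all genes. Of 2303 genes of a like level, 16 (0.695%) were 1.5-fold higher and 336 lower. In WT and KO respectively, Id2 was at 294 and 388 TPM (0.40), Id4 at 7.98 and 10.6 TPM (0.37), and Id3 at 229 and 224 TPM (-0.03). The Id sum was 776 TPM in KO mesenchyme, 1.26 times WT, with the share of Id1 at 13.6% in WT and 19.7% in KO. As deposited, Id3 had the largest ratio of the 4 in ectoderm and the smallest in mesenchyme, but in mesenchyme it was not the smallest once the GC trend was subtracted (Id3 0.42, Id2 0.40 and Id4 0.27). Of the feedback genes, Bambi was at 12.1 and 13.9 TPM (0.19) and Smad6 at 8.59 and 5.96 TPM (-0.46). Endothelial markers summed to 352 TPM in WT mesenchyme and 259 in KO, and neuron markers to 152 and 235 TPM. Their part in the Id and Grem1 values was not tested.

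**Figure D3:**
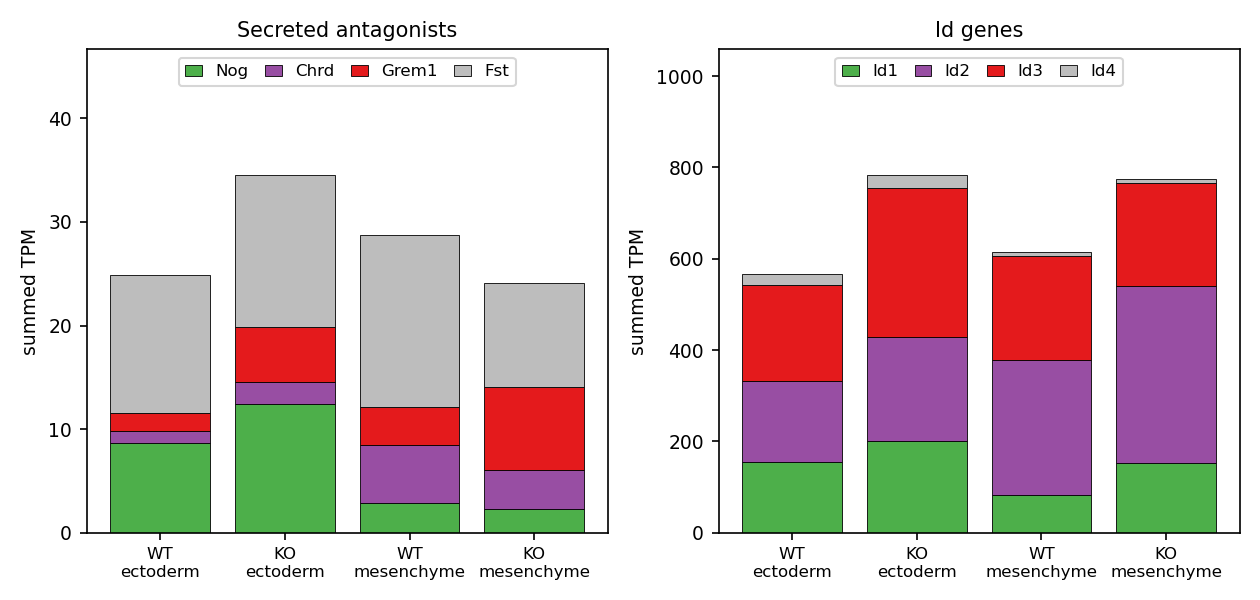
Summed TPM (axes from 0) of the 4 secreted antagonists (left) and the 4 Id genes (right) in each group, with each gene as a segment; there is 1 value per group and no error. The Grem1 segment is 7.03% of the antagonist bar in WT and 15.3% in KO ectoderm, and 12.7% in WT and 33.3% in KO mesenchyme. The Id bars are 784 and 776 TPM in the KO groups against 567 and 614 in WT.

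Differences in mesenchyme went with the base composition of transcripts. Genes of at least 5 TPM were divided into 5 equal groups by transcript GC content. The group of lowest GC had a median log2 ratio of 0.16 in mesenchyme and that of highest GC -0.52, while in ectoderm the same medians were -0.00 and 0.15. Among the members, Smad6 (60.8% GC), Nog (56.2%), Id3 (55.6%), Id1 (54.7%) and Chrd (53.7%) had GC-rich transcripts, and Id2, Grem1, Fst, Bambi and Id4 lay between 42.6% and 45.1%. After subtraction of the trend, Id1 had a ratio of 1.28 and Grem1 of 0.94 in mesenchyme, and Fst of -0.71. Id3 then stood at 0.42, Nog at 0.23 and Smad6 at 0.14, all with the sign turned, and Chrd at -0.09. All 4 Id genes and 4 of the 6 antagonist and feedback genes were then above 0 in KO mesenchyme. The median of all genes was then itself 0.04, against -0.12 as deposited, so most genes were above 0 too. Of all genes 4.84% were then 1.5-fold higher and 2.12% lower.

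**Figure D4:**
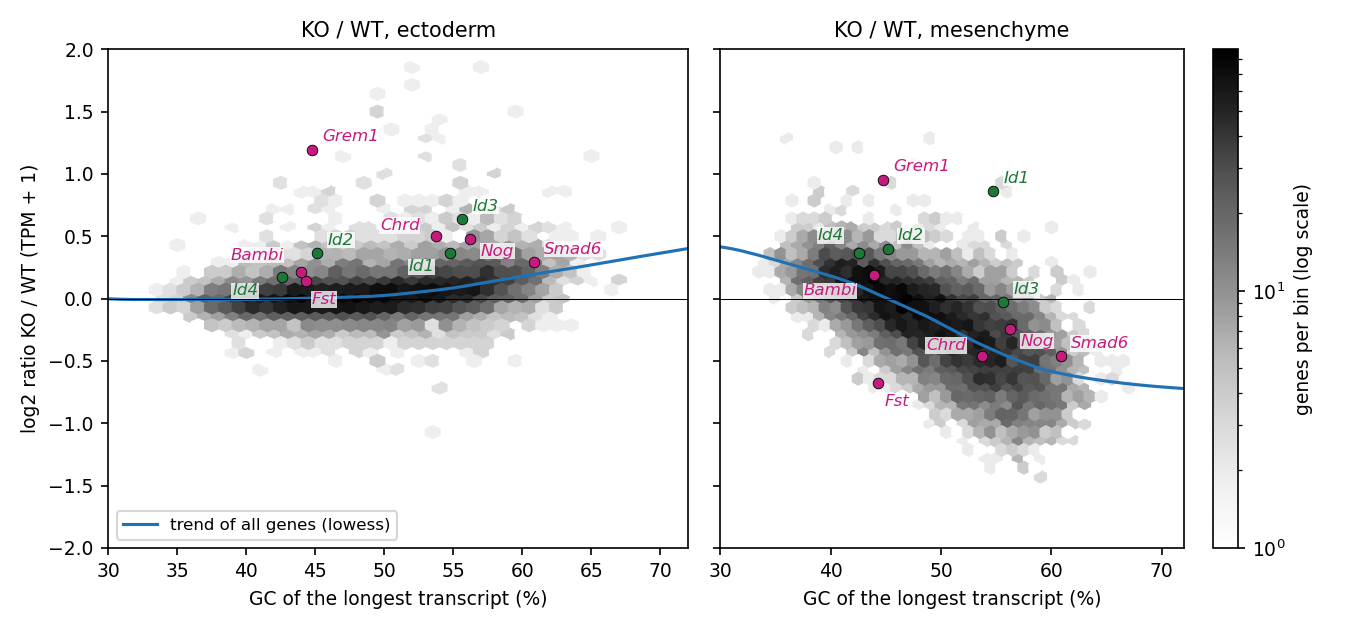
Log2 ratio of KO to WT (TPM + 1) against the GC content of the longest transcript in percent, in ectoderm (left) and mesenchyme (right); grey bins count genes of at least 5 TPM on average, the blue line is their lowess trend, and points are the 10 members (antagonist and feedback genes pink, Id genes green). In mesenchyme the trend falls with GC, Id1 and Grem1 lie far above it and Fst lies below it.

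The KO differences of the layers were compared for each member as the ectoderm ratio minus the mesenchyme ratio. None of the 10 reached 2-fold, where 7.34% of 14328 genes did with the higher value in ectoderm and 0.593% in mesenchyme. The largest was that of Chrd (0.96), followed by Fst (0.82), Smad6 (0.76), Nog (0.72) and Id3 (0.67). With the GC trend of this difference itself subtracted the order changed: Fst was at 0.84, Chrd at 0.52, Nog at 0.15, Id3 at 0.13 and Smad6 at -0.03, with its sign turned. Id1 had the lowest (-0.49), and 3.62% of all genes had a lower one; with the GC trend subtracted it was at -0.99. As deposited, all 6 antagonist and feedback genes were above 0, with Bambi at 0.02, and 3 of the 4 Id genes below 0, but the median of all genes was itself 0.19. These differences were not tested. Among the KO groups, Nog and Id4 were at least 2-fold higher in ectoderm than in mesenchyme, as in WT, and none was 2-fold lower, where 9.06% and 6.88% of all genes were. Chrd, at 2.07 TPM in KO ectoderm and 3.78 in KO mesenchyme, was within 2-fold there.

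Over 7 lists of other Bmp pathway genes, 12 of 56 measured genes were 1.5-fold higher in KO ectoderm and none lower, against 4.92% and 0.452% of all genes, and the median log2 ratio was 0.12 against 0.05. Of these 12, only Bmp5 and Hey1 were above WT mesenchyme in KO ectoderm (WT mesenchyme 6.34 and 26.6 TPM). The others lay between WT ectoderm and WT mesenchyme. Over all genes, higher in KO or not, 42.1% had that pattern, and its share among genes 1.5-fold higher was not taken. The part of mesenchyme transcripts in the values of the 12 genes was not tested. Values below are given for WT first and KO second. Of 8 measured ligand genes in ectoderm, Bmp5 alone was 1.5-fold higher (3.02 and 6.95 TPM), and the median log2 ratio was -0.02. Bmp7, the leading ligand of WT ectoderm, was at 77.8 and 70.0 TPM, and Bmp4, that of the mesenchyme, at 20.3 and 29.6 TPM in ectoderm. Of 10 receptor and coreceptor genes 2 were higher, Acvrl1 (1.14 and 3.17 TPM) and Eng (0.83 and 3.84 TPM), both known from blood vessels. The receptor genes Bmpr1a (73.7 and 76.9 TPM) and Acvr2a (42.4 and 41.3 TPM) were level. None of 9 Smad genes and their modulators was 1.5-fold apart, and Smad4 and Smad5 were at 71.9 and 76.8 TPM and at 70.45 and 70.6 TPM.

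Secreted modulators outside the members, other Bmp targets and partners of Id proteins followed in ectoderm. Among the modulators Bmper was higher (0.51 and 2.82 TPM). Sostdc1, an antagonist of Bmp and Wnt signals, was at 100.4 and 76.7 TPM, and Fstl1 at 120 and 155 TPM. All 8 other Bmp targets had ratios above 0, and 3 were 1.5-fold higher: Hey1 (20.5 and 37.2 TPM), Dlx5 (6.23 and 20.9 TPM) and Gata2 (2.81 and 4.99 TPM). Dlx5 is also in the nasal marker list, and Msx1, a target with a role in palate formation, was at 74.5 and 105.75 TPM. Of the 6 helix-loop-helix partners of Id proteins, the mesenchyme factors Twist1, Twist2 and Hand2 were higher (Twist1 7.71 and 24.1 TPM), and Twist1 is also in the mesenchyme marker list. The E protein genes Tcf3 (151 and 198 TPM), Tcf4 (40.3 and 55.0 TPM) and Tcf12 (134 and 143 TPM) were within 1.5-fold. Of 2 measured activin ligand genes Inhba was higher (0.78 and 2.52 TPM), and Inha was at 16.5 and 17.5 TPM.

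In mesenchyme 45 of 59 measured pathway genes had lower values in KO, in a layer where the ratios of most genes were below 0. Over all 7 lists 17 of 59 measured genes were 1.5-fold lower and 1, Skil (18.8 and 29.3 TPM), higher, with a median log2 ratio of -0.36. Over all genes 13.4% were lower and 2.33% higher, with a median of -0.12. The pathway ratios are as deposited, without subtraction of the GC trend, after which 2.12% of all genes were lower. Lower ligand genes were Bmp7 (30.3 and 19.2 TPM), Bmp6 and Gdf5, and Bmp4 was at 60.1 and 44.2 TPM (-0.43). Lower receptor and coreceptor genes were Acvr1, Acvrl1, Eng and Rgma (21.2 and 9.92 TPM), while Bmpr1a was at 74.35 and 90.2 TPM. Smurf1 (27.7 and 15.99 TPM) and Ski (54.6 and 26.8 TPM), brakes on Smad signalling, were lower too. Of the same list Skil was higher, as given above, and Smurf2 was at 41.3 and 47.1 TPM. Among the modulators Nbl1 (124 and 74.2 TPM) and Bmp1, whose protease cuts chordin (131 and 83.3 TPM), were lower. Of the other targets Dlx5 (45.8 and 22.0 TPM) and Dlx3 (8.55 and 5.36 TPM) were lower, Msx1 was at 193 and 139 TPM and Msx2 at 16.8 and 19.2 TPM. Tcf3 (238 and 129 TPM), Twist1 (191 and 127 TPM) and Hand2 (33.3 and 18.9 TPM) were the lower partners of Id proteins, and Tcf12 was at 264 and 287 TPM. None of the 3 measured activin ligand genes was 1.5-fold apart, with Inhba at 7.27 and 9.06 TPM.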

How the data were processed

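RNA from facial ectoderm and mesenchyme of WT and Esrp1 KO embryos was taken with Trizol, per the labels' protocols. The authors deposited a table of TPM values that has a single column for each group. The submitters' processing notes list kallisto 0.43.0, STAR 2.5.2a and build mm10. Not given in the sources used here: which program made the TPM, from which annotation, and how 4 libraries became 1 value. Where a symbol had several rows (103 of them), the largest was used. Comparisons took genes averaging 1 TPM or more over their groups, with a pseudocount of 1 TPM. The 10 members, the 7 pathway lists and the 9 marker lists were chosen with earlier results of these data known. Named genes were the members and, per list, those past the fold and the 2 most abundant, with some others added after their values were seen; 1 list gene is not reported here by name and stays in the list counts. Transcript GC came from GENCODE M21 (99.0% of symbols) and its trend from lowess (fraction 0.3, genes of at least 5 TPM, statsmodels 0.14.6). The mesenchyme share was the median gain of markers at least 5-fold higher in mesenchyme. Scripts (Python 3.11.15, pandas 2.3.3) were tested on simulated data. Promoter sequences are from RefSeq (GRCm38.p6).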

Additional observations from a re-analysis of the deposited data

How the results depend on the processing

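No paired analysis was possible because the table holds 1 value per group, and for the same reason leaving out each library was not run. With 1 value per group, neither library spread nor the kind of index (libraries with 2 barcodes numbered 2 in each KO group, 1 in WT ectoderm and 0 in WT mesenchyme) can be separated from genotype. The cause of the changes below was not tested, except where fewer genes entered or the counting fold changed. In ectoderm 2 members, Grem1 and Id3, were at least 1.5-fold higher. With a filter of 5 TPM 8 members entered, without Grem1 and Chrd, and Id3 alone was higher. Grem1 alone was with columns rescaled without mitochondrially encoded genes, with quantile normalization, with the GC trend subtracted and at 2-fold. At the lower counting fold tried 6 were. The count was 3 with a pseudocount of 0.1 TPM, where Chrd was added, and after subtraction of a mesenchyme share, where Nog was added. In mesenchyme 2 were higher, but 4 at that lower fold and 0 at 2-fold. There 1 was lower, but 0 with a pseudocount of 5 TPM, after subtraction of the median of all genes, with quantile normalization and at 2-fold, and 3 at the lower fold. Between WT layers 2 were higher in ectoderm (1 with a pseudocount of 5 TPM, 3 after subtraction of the median, quantile normalization or the GC trend). In that comparison 1 was lower, Chrd (2 with a pseudocount of 0.1 TPM, 0 with one of 5 TPM). It was 0 as well with a filter of 5 TPM, which left Chrd out. For the difference of KO effects 1 member reached 2-fold with a pseudocount of 0.1 TPM (Chrd, 1.33). All 10 ectoderm ratios stayed above 0 in each alternative that included them, with mesenchyme subtracted at the median marker share only. Several alternatives could not have turned a sign. A changed pseudocount or filter cannot turn any, and subtraction of WT mesenchyme cannot for 7 of them. Subtraction of KO mesenchyme cannot for Nog, Fst, Bambi, Smad6, Id1, Id3 and Id4, which were above KO mesenchyme. Rescaled columns, subtraction of the median, quantile normalization and the GC trend could have turned a sign. Over all genes, 686 were higher and 63 lower in ectoderm, against 467 and 131 with quantile normalization, and 332 and 1902 in mesenchyme, against 684 and 300 with the GC trend subtracted.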

Other observations

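For the members at least 1.5-fold apart between KO and WT in a layer, the genes with the most similar pattern were found by the largest difference of centred log2(TPM + 1) over the 4 groups. The search covered 11221 other genes, and with 4 values a match is a description. Grem1 had few similar genes: Hist1h3c (3.88, 8.08, 7.50 and 12.9 TPM in WT ectoderm, KO ectoderm, WT mesenchyme and KO mesenchyme) lay within 0.18 and Pcp4 within 0.20, and 3 genes in all lay within 0.25. Id1 had 11 genes within 0.25, led by Slc16a6 (0.13) and Hist1h2bg (0.18). Id3 had 104, led by Prrg2 (0.08) and Lypd1 (0.09). Fst had 1811, led by Vars2 (30.8, 33.65, 37.7 and 23.2 TPM) and Kdelr1, both within 0.02, so its pattern was common in the table.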
